A study of Physcomitrium patens with 8 samples.

Results

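Pairs of neighbouring genes whose spans overlap on opposite strands of the moss genome were examined. The pairs were taken from the gene lines of the deposited gene models (build V3.0): 2 genes on the same sequence and on opposite strands whose start-to-end spans share at least 1 base. This gave 728 pairs made of 1426 genes, 5.36% of the 26610 genes. No measured value entered the choice. For comparison, 25355 pairs of genes that follow each other along a sequence without overlapping were used (adjacent pairs), of which 14841 had both genes at a mean of at least 20 normalized reads.

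The series holds 8 RNA-seq libraries of chloronemata, the green filaments of the moss Physcomitrium patens (strain Gransden), harvested from cultures subcultured every 6 days. The knockout line labelled PpanrKO (KO) and the wild type (WT) were each treated with ABA (1e-05 M, 1 h), with mannitol (10% w/v, 1 h), by dehydration to 70% loss of fresh weight, or left untreated as control. RNA of 3 biological replicates was pooled for each library, so each group is 1 library, and a difference between 2 libraries has no replicate check. Library totals, summed over genes, were 22516957 to 38767634 reads, which were recovered from the step size of the deposited normalized values.

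When 2 genes overlap on opposite strands, the same stretch of DNA is transcribed in both directions. The transcripts can be complementary over that stretch and are then called natural antisense transcripts. In convergent pairs the 3′ ends overlap, in divergent pairs the 5′ ends overlap, and in contained pairs 1 gene lies inside the span of the other, often in an intron. In plants such pairs are known as sources of small RNAs and of transcriptional interference. ABA is the hormone of water stress in land plants, and in mosses it brings about tolerance of drying. The series title names the gene removed in KO as a regulator of the ABA response needed for that tolerance.

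A limit on all values below follows from the counting. Where 2 genes overlap, reads of one cannot be told apart from reads of the other unless counting used the strand, and the sources used here do not say whether it did. The submitters' processing notes name no strand setting. The deposited gene models give gene spans without exons, so lengths and shared bases below refer to spans with their introns. The files pair the IDs with no names, so no role can be given to a member gene. In whole tissue, fewer cells of a type and less RNA per cell cannot be told apart.

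Of the 728 pairs, 413 were convergent, 173 divergent and 142 contained. They shared 1 to 4194 bases, with a median of 520.5. The median was 525 bases in convergent, 475 in divergent and 569.5 in contained pairs. All 27 chromosomes held such pairs, 722 in all, and 6 more lay on scaffolds. Member genes made up 2.25% to 8.62% of the genes of a chromosome. Most member genes, 1398, belonged to 1 pair, 26 to 2 pairs and 2 to 3 pairs.

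Member genes had a median span of 2652 bases, against 2594 for all other genes. An older V1.6 gene model was recorded for 70.4% of member genes and for 70.3% of other genes. This share differed by geometry. It was 80.7% for genes of convergent pairs, 63.6% for divergent pairs, 54.3% for the longer gene of a contained pair and 44.4% for the gene inside it. Genes inside another were short, with a median span of 569.5 bases.

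Both genes had a mean of at least 20 normalized reads in 458 pairs, made of 894 genes. In 165 pairs only 1 gene did, in 105 pairs neither did, and 25 pairs had a gene at 0 reads in every library. The pairs that passed were 282 convergent (68.3% of them), 107 divergent (61.8%) and 69 contained (48.6%). Of the adjacent pairs 58.5% passed. Gene by gene, 74.1% of member genes passed, against 74.5% of other genes, but only 48.6% of the genes inside another did. Per kilobase of span, member genes that passed had a median mean level of 97.0 normalized reads, against 120 for other genes that passed. The median absolute log2 ratio of the partners' levels per kilobase was 1.00 in overlapping pairs and 1.62 in adjacent pairs. It was 2.11 in the pairs that shared at most 10% of the shorter span, and 1.18 in tandem neighbours within 1000 bases.

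The reads of a contained gene never exceeded those of the gene around it. In 142 of 142 contained pairs the longer gene had at least as many reads as the gene inside it in all 8 libraries, that is in 1136 of 1136 comparisons (exact 95% binomial interval of the share of pairs, 97.4% to 100%). Pairs whose inner gene had no reads could not come out otherwise. The same held for the 133 pairs whose inner gene had reads (1064 of 1064 comparisons). It also held for the 69 pairs with both means at least 20, and for 234 of 234 contained pairs on the same strand. Where spans did not contain each other the order was mixed. The longer gene had at least as many reads in all 8 libraries in 61.1% of the 586 partly overlapping pairs and in 56.6% of the 25355 adjacent pairs. With both means at least 20 the shares were 53.2% of 389 and 43.7% of 14841 pairs. Counting all reads over a whole span without the strand would give the order seen in contained pairs by construction. The sources used here do not say how reads over shared bases were assigned, so a read of a contained gene may be present in the values of both genes.

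**Figure D1:**
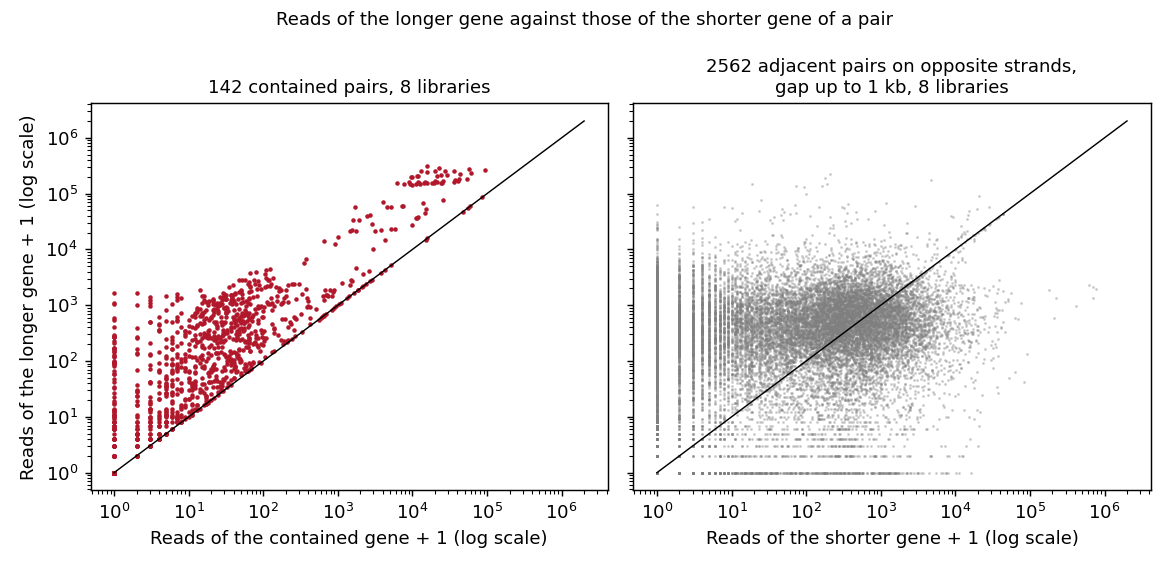
Reads of the longer gene (vertical axis, log scale, 1 added) against reads of the shorter gene (horizontal axis, log scale, 1 added), 1 point per pair and library, with the line of equality. Left, all 142 contained pairs on opposite strands lie on or above the line. Right, 2562 adjacent opposite-strand pairs with a gap of at most 1000 bases lie on both sides of it.

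To see what remained of the longer gene, the reads of the contained gene were subtracted from it in the 69 contained pairs that passed. This holds only if every read of the contained gene was also counted in the longer gene, which is not known. The contained gene held a median of 13.6% of the reads of the longer gene (quartiles 6.31% and 41.7%) on a median of 17.5% of its length. In 5 pairs it held at least 95%, so that little was left. The remainder kept a mean of at least 20 in 61 pairs. There the contained gene correlated over the 8 libraries with the whole longer gene at a median Pearson's r of 0.94, and with the remainder at a median of 0.86 (quartiles 0.69 and 0.95). With the remainder, r was at least 0.9 in 29 of the 61 pairs and below 0 in 3. Per kilobase, the contained gene was denser than the remainder in 26 of the 61 pairs, with medians of 103 and 149 normalized reads.

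The 3 pairs with the highest correlation were all contained pairs in which the inner gene held nearly all reads. Phpat.010G003100 (chromosome 10, 1050105 to 1052734, plus strand) contains Phpat.010G003200 (1050144 to 1052595, minus strand), and the inner gene held 99.7% of the reads. Phpat.010G003100 had 1116, 696, 645 and 959 reads in the KO libraries with ABA, mannitol, dehydration and control, and 552, 331, 586 and 823 in the WT libraries in the same order. Phpat.010G003200 had 1110, 691, 644 and 956 reads in KO and 550, 331, 585 and 822 in WT. The 2 genes were thus within a few reads of each other in every library, lowest with mannitol in WT. With r = 1.00 for the whole longer gene, the remainder averaged 2.36 normalized reads, below the minimum of 20.

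Phpat.016G058600 (chromosome 16, 9190166 to 9192307, plus strand) and Phpat.016G058700 (9190170 to 9191711, minus strand) were a second such pair, in which the inner gene held 99.97% of the reads. Phpat.016G058600 had 14205, 1488, 51650 and 94015 normalized reads in KO with ABA, mannitol, dehydration and control. In WT it had 95960, 2149, 19406 and 45755 in the same order. The partner was within 2% of it in every library. Both genes were lowest with mannitol in both genotypes, with log2 differences from the control of -5.97 in KO and -4.41 in WT for Phpat.016G058600. The genes Phpat.016G058500 and Phpat.016G058800 also had values within 2% of this pair in all libraries, so its reads may belong to copies and the values are uncertain for each of the 4 genes. Phpat.021G040200 and Phpat.021G040100 (chromosome 21, r = 1.00, 99.6% of the reads in the inner gene) completed the 3.

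Over all geometries, overlapping partners ran more closely together than adjacent genes. Each r is over the 8 libraries on the log2(value + 10) scale, and the points of every pair share the same libraries and depths. The median r was 0.81 in the 458 overlapping pairs (quartiles 0.52 and 0.95) and 0.38 in the 14841 adjacent pairs (quartiles -0.05 and 0.70). It reached 0.9 in 33.0% of overlapping pairs, against 7.51% of adjacent pairs. It was below 0 in 6.33% and 27.7%. By geometry the median was 0.76 in convergent, 0.80 in divergent and 0.95 in contained pairs. Overlapping pairs on the same strand had a median of 0.87 (285 pairs).

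The correlation followed how much of the shorter gene was shared. The median r was 0.52 where at most 10% of the shorter span was shared (51 pairs), 0.75 for over 10% to 50% (270 pairs), 0.96 for over 50% to below 100% (68 pairs) and 0.95 for contained genes (69 pairs). Pairs sharing fewer than 100 bases had a median of 0.51 (31 pairs). Adjacent pairs with a gap of at most 1000 bases had medians of 0.31 when convergent (1028 pairs), 0.57 when divergent (538 pairs) and 0.63 when in tandem on 1 strand (2016 pairs). On the deposited scaling the pairs with little overlap therefore lay within the range of close neighbours that share no base. Among convergent pairs alone the median was 0.52 at a share of up to 10% (37 pairs) and 0.31 for convergent neighbours within 1000 bases.

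**Figure D2:**
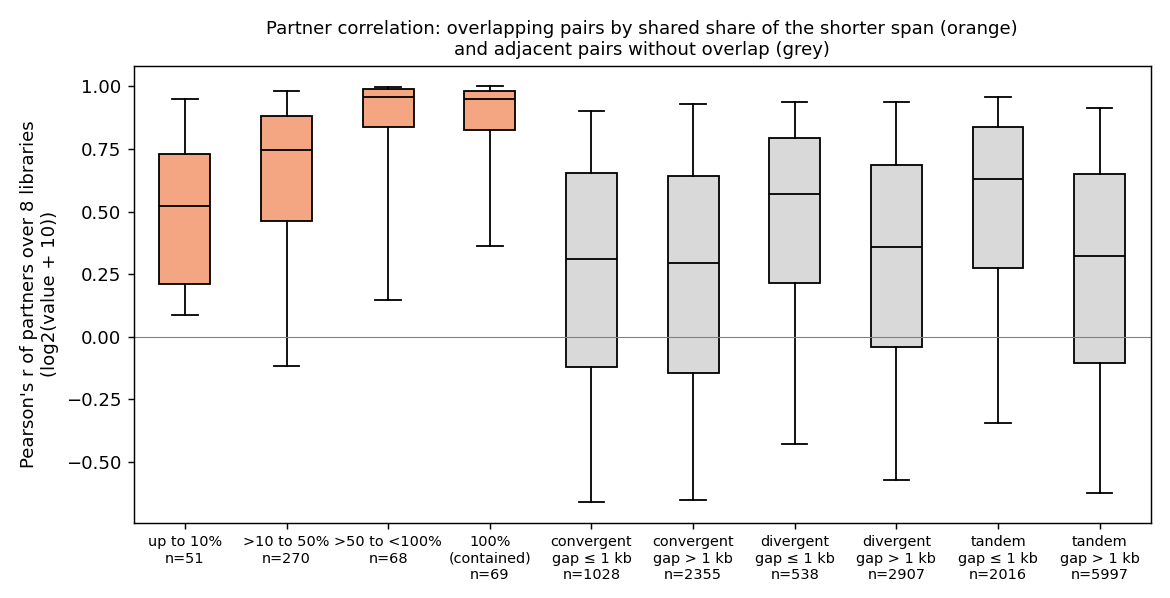
Pearson's r of the 2 partners' log2(value + 10) over the 8 libraries, for the 458 overlapping pairs by the share of the shorter span that is overlapped (orange) and for adjacent pairs by orientation and gap (grey). Lines are medians, boxes quartiles and whiskers the 5th and 95th percentiles of pairs. The medians of overlapping pairs run 0.52, 0.75, 0.96 and 0.95 with growing overlap.

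The levels of the partners bore on r as well. In partly overlapping pairs it was 0.81 where the partners' mean values were under 2-fold apart (163 pairs), 0.81 at 2- to 8-fold (156 pairs) and 0.53 at 8-fold or more (70 pairs). Adjacent opposite-strand pairs had 0.44, 0.35 and 0.25 in the same classes. The scaling of the libraries also mattered. With median-of-ratios scaling the median r was 0.73 in overlapping and 0.17 in adjacent pairs, and by share of the shorter span it was 0.48, 0.66, 0.95 and 0.94. Neighbours within 1000 bases then had medians of 0.08 when convergent, 0.33 when divergent and 0.48 when in tandem, so that pairs with little overlap stood above both opposite-strand classes.

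The largest overlaps showed the same range. Phpat.027G005600 (chromosome 27, 950426 to 955063, plus strand) and Phpat.027G005500 (947667 to 954619, minus strand) are divergent and share 4194 bases, the most of any pair that passed. Phpat.027G005600 had 554, 336, 511 and 387 normalized reads in KO with ABA, mannitol, dehydration and control, and 221, 297, 251 and 242 in WT. Phpat.027G005500 had 891, 561, 764 and 578 in KO and 573, 630, 565 and 448 in WT. Both genes were highest in KO with ABA, and r was 0.84. In the convergent pair with the most shared bases (2468), Phpat.011G082200 and Phpat.011G082300 on chromosome 11, r was 0.98. Phpat.011G082200 had 398, 354, 230 and 273 normalized reads in KO and 257, 275, 122 and 238 in WT, and its partner 351, 292, 211 and 256 in KO and 215, 209, 106 and 199 in WT. Both were lowest in WT after dehydration.

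Taken singly, member genes responded in shares within 5 percentage points of those of all genes. A response here is a difference of at least 2-fold on the log2(value + 10) scale between 2 libraries. With ABA in WT, 184 of the 894 member genes (20.6%) were higher, against 16.7% of all 19821 genes that passed, and 73 (8.17%) were lower, against 11% of all. With mannitol in WT 19.6% were higher, against 21.2% of all, and 7.94% were lower, against 6.68%. After dehydration in WT 10.1% were higher, against 10.3% of all, and 16.1% were lower, against 20.6%. In KO 7.38% were higher with ABA (8.29% of all), 8.95% with mannitol (9.1%) and 1.45% after dehydration (1.97%). Lower in KO were 3.02% (4.97%), 8.50% (9.56%) and 8.95% (10.8%) in the same order. The medians of all genes were not at 0. They were 0.18, 0.47 and -0.20 on the log2 scale for ABA, mannitol and dehydration in WT, and median-of-ratios scaling moved those differences by -0.20, -0.50 and 0.22. In KO the medians were 0.23, 0.13 and -0.25, and the scaling moved them by -0.24, -0.15 and 0.27. Counts of higher and lower genes depend on this choice, and the deposited scaling is used unless stated.

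Where both partners responded, they nearly always went the same way. With ABA in WT both partners were at least 2-fold apart from the control in 90 overlapping pairs (19.7%), against 9.95% of adjacent pairs. Both were higher in 67, both lower in 19, and 4 went opposite ways. The same-direction share was therefore 95.6%, against 71.6% in the 1477 adjacent pairs with both partners 2-fold apart. With mannitol in WT there were 68 such pairs (14.8%, against 9.7%), 41 with both higher, 26 with both lower and 1 opposite, a share of 98.5%, against 82.4%. After dehydration in WT there were 67 (14.6%, against 11.5%), 28 higher, 36 lower and 3 opposite, a share of 95.5%, against 73.0%. In KO both partners were 2-fold apart in 14 pairs with ABA (3.06%, against 3.1%), in 44 with mannitol (9.61%, against 5.05%) and in 23 after dehydration (5.02%, against 2.82%). Their same-direction shares were 100%, 100% and 91.3%, against 81.3%, 77.6% and 88.5% in adjacent pairs. The adjacent pairs in these comparisons include 8013 tandem pairs and gaps of any length. In adjacent opposite-strand pairs alone the same-direction shares in WT were 70.6% with ABA, 80.9% with mannitol and 69.0% after dehydration. In KO they were 79.0%, 77.0% and 87.8%. Response shares were not split by gap. The same-direction shares were not tested, since members can share reads and each library counts once.

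The split into higher and lower pairs moved with the scaling, whereas the scarcity of opposite pairs did not. With median-of-ratios scaling the pairs with both partners higher and both lower were 6 and 8 with ABA, 12 and 34 with mannitol, and 4 and 13 after dehydration in KO. On the deposited values they were 9 and 5, 17 and 27, and 2 and 19. In WT they were 55 and 21 with ABA, 15 and 35 with mannitol, and 34 and 27 after dehydration. Opposite pairs numbered at most 4 in each of these 6 comparisons.

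Over all overlapping pairs the responses of the partners were also closer in size. The median absolute gap between the partners' log2 responses to ABA in WT was 0.34 in overlapping pairs and 0.75 in adjacent pairs. For mannitol it was 0.37 and 0.65, and for dehydration 0.33 and 0.82. Pairs that shared at most 10% of the shorter span (51 pairs) had gaps of 0.77, 0.67 and 0.67 for the 3 treatments, near or above those of adjacent pairs except after dehydration. In the contained pairs that kept a remainder, the comparison was repeated with the remainder in place of the longer gene. Both it and the contained gene were at least 2-fold apart in 19 pairs with ABA, 15 with mannitol and 8 after dehydration in WT, and they went the same way in all of these pairs. The contained pairs compared include some of the chromosome 20 region described below, and the counts are not given without them.

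**Figure D3:**
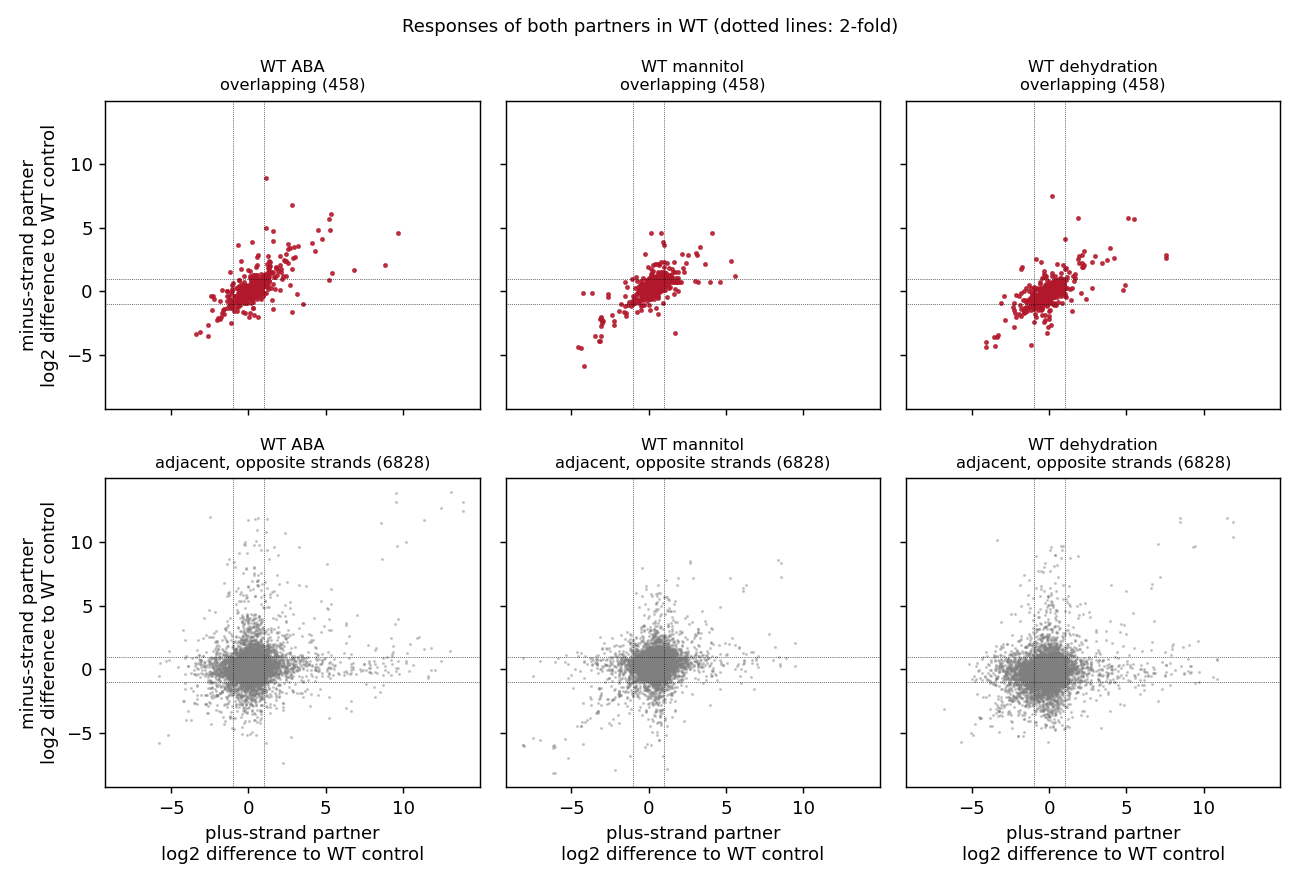
Log2 difference from the WT control of the minus-strand partner (vertical axis) against the plus-strand partner (horizontal axis) for ABA, mannitol and dehydration. Each point is a pair, with the 458 overlapping pairs above and 6828 adjacent opposite-strand pairs below, and dotted lines mark 2-fold. In the upper row few pairs lie in the corners of opposite response (4, 1 and 3 pairs).

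A contained pair led the pairs with both partners higher, with ABA and after dehydration in WT alike. Phpat.014G070400 (chromosome 14, 12504849 to 12505497, plus strand) lies inside Phpat.014G070300 (12504706 to 12508404, minus strand). Phpat.014G070400 had 5.67, 3.52, 3.74 and 1.10 normalized reads in KO with ABA, mannitol, dehydration and control, and 441, 100.3, 476 and 0.965 in WT. Phpat.014G070300 had 60.5, 61.3, 45.9 and 25.4 in KO and 2118, 348, 1676 and 22.2 in WT. Both genes were high in the 3 treated WT libraries only and stayed low in every KO library. The log2 differences in WT were 5.36 and 6.05 with ABA and 5.47 and 5.71 after dehydration. Phpat.014G070400 had 1 read in the control library of each genotype and passed the minimum through the treated WT libraries alone. Its differences are therefore given as a description, and their size depends on the constant added before taking logs. The inner gene held 23.7% of the reads. Its r with the remainder was 0.99, and this too rests on the 3 treated WT libraries.

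The convergent pair Phpat.016G031100 (chromosome 16, 4940528 to 4941337, plus strand) and Phpat.016G031200 (4941194 to 4944358, minus strand) shares 144 bases and led with mannitol in WT. Phpat.016G031100 had 17.9, 14.1, 3.74 and 3.31 normalized reads in KO with ABA, mannitol, dehydration and control, and 874, 404, 822 and 14.5 in WT. Phpat.016G031200 had 10.4, 52.1, 17.8 and 16.5 in KO and 1620, 761, 1724 and 22.2 in WT. The 3 treated WT libraries again stood above all others in both genes. The log2 differences with mannitol in WT were 4.08 and 4.58. Phpat.016G031100 passed the minimum through the treated WT libraries alone (means 9.77 in KO and 529 in WT), so its difference is given as a description. As 17.8% of the shorter span is shared, the reads outside the shared bases were not separated from those inside.

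The pairs with both partners lower had the same closeness. Phpat.007G073400 (chromosome 7, 13108632 to 13110028, plus strand) and Phpat.007G073500 (13109101 to 13111762, minus strand) are convergent and share 928 bases. Phpat.007G073400 had 1103, 1933, 850 and 978 normalized reads in KO with ABA, mannitol, dehydration and control, and 35.5, 665, 36.9 and 459 in WT. Phpat.007G073500 had 1422, 2303, 1248 and 1315 in KO and 40.4, 684, 39.4 and 504 in WT. Both were low in WT with ABA and after dehydration and in no KO library. With ABA in WT the ratio of normalized reads of Phpat.007G073500 to the control was 0.0801 (95% counting interval 0.0513 to 0.120). The log2 differences of the pair were -3.36 and -3.35.

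After dehydration in WT the leading pair was Phpat.002G016900 (chromosome 2, 2379112 to 2380196, plus strand) inside Phpat.002G016800 (2378577 to 2380440, minus strand), where the inner gene held 70.5% of the reads. Phpat.002G016900 had 245, 17.6, 59.9 and 189 normalized reads in KO with ABA, mannitol, dehydration and control, and 37.2, 7.60, 14.8 and 405 in WT. Phpat.002G016800 had 345, 23.9, 84.2 and 262 in KO and 53.3, 18.2, 18.5 and 579 in WT. Mannitol and dehydration lay below the control in both genotypes, whereas ABA lay below it in WT only. The log2 differences after dehydration in WT were -4.07 and -4.37.

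Most pairs with both partners higher in WT were not both higher in KO, among overlapping and adjacent pairs alike. Of the 67 pairs with both partners higher with ABA in WT, 3 had both higher in KO, 6 had 1 partner higher and 58 had neither. The median log2 response of their genes was 0.37 in KO and 1.94 in WT. The share with both higher in KO, 4.48%, stood beside 4.24% of the 707 adjacent pairs with both partners higher in WT. Of the 41 pairs higher with mannitol in WT, 5 (12.2%) had both partners higher in KO, against 7.45% of adjacent pairs (medians 0.32 in KO and 1.38 in WT). Of the 28 pairs higher after dehydration, none did, which with 28 pairs allows a share of up to 12.3% (exact 95% binomial limit), against 0.882% of adjacent pairs, and 1 had 1 partner higher (medians 0.08 in KO and 2.23 in WT). The pairs were picked on the WT responses, among pairs with both means at least 20 over all 8 libraries. A gene can pass that filter through high WT libraries alone, so the KO medians are not independent of the choice. The medians of both genotypes are a description.

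Among pairs lower in WT the counts differed by treatment. With mannitol, 20 of the 26 pairs lower in WT were lower in KO (76.9%, against 58.8% of adjacent pairs; medians -2.03 in KO and -2.36 in WT). After dehydration 9 of 36 were (25%, against 21.1%; medians -0.86 in KO and -1.58 in WT), and with ABA 2 of 19 (10.5%, against 15.7%; medians 0.03 in KO and -1.76 in WT). The mannitol count rested partly on 1 region. Without the region of chromosome 20 described next, 8 of 14 pairs lower with mannitol in WT were lower in KO (57.1%, exact 95% binomial interval 28.9% to 82.3%). The 14 still hold the pair Phpat.026G000100 and Phpat.026G000200 on chromosome 26, which was lower with mannitol in both genotypes.

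That region spans 52413 to 243604 on chromosome 20. It was chosen after its values were seen, as a run of overlapping pairs with at least 1 partner at a mean of at least 5000 and at most 100000 bases between pairs. It holds 39 genes in all and 12 overlapping pairs. The 20 member genes had means from 2268 to 666693 normalized reads. Summed over genes, the 39 genes held 14.5%, 3.36%, 13.0% and 11.0% of the reads of all genes in KO with ABA, mannitol, dehydration and control. In WT they held 17.0%, 1.22%, 16.5% and 13.7%. Reads over shared bases or of copies may count more than once in these sums, so they are not shares of sequenced reads. The share was thus lowest with mannitol in both genotypes. All 12 pairs had both partners higher with ABA in WT (log2 differences 1.09 to 2.37) and both lower with mannitol in WT (-3.86 to -1.54) and in KO (-2.51 to -1.35), and none had r below 0.94. Leaving them out left 55 pairs higher with ABA and 14 lower with mannitol in WT, and 15 lower with mannitol in KO.

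The member pairs with the highest level of the lower partner came from this region and from chromosome 26. Phpat.020G002800 (chromosome 20, 159032 to 161847, plus strand) and Phpat.020G002700 (158748 to 160374, minus strand) are divergent and share 1343 bases. Phpat.020G002800 had 299393, 49833, 190321 and 222390 normalized reads in KO with ABA, mannitol, dehydration and control, and 471855, 21476, 254907 and 188199 in WT. Mannitol gave the lowest value in both genotypes and ABA the highest. The pair Phpat.020G003300 and Phpat.020G003200 has the same lengths and overlap, and Phpat.020G002700 and Phpat.020G003200 had means of 666693 and 666645, so these genes may be copies that share reads and their values are uncertain. Phpat.026G000100 and the gene inside it, Phpat.026G000200 (chromosome 26), had means of 189133 and 51249, and r of the inner gene with the remainder was 0.95. Its remainder averaged 137885 normalized reads, and the inner gene took 60.1% of its length. The pair Phpat.020G004200 and Phpat.020G004300 on chromosome 20 had 137886 and 60.1%. These pairs may be copies too, which was not tested, so counts without the region may still hold its signal.

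**Figure D4:**
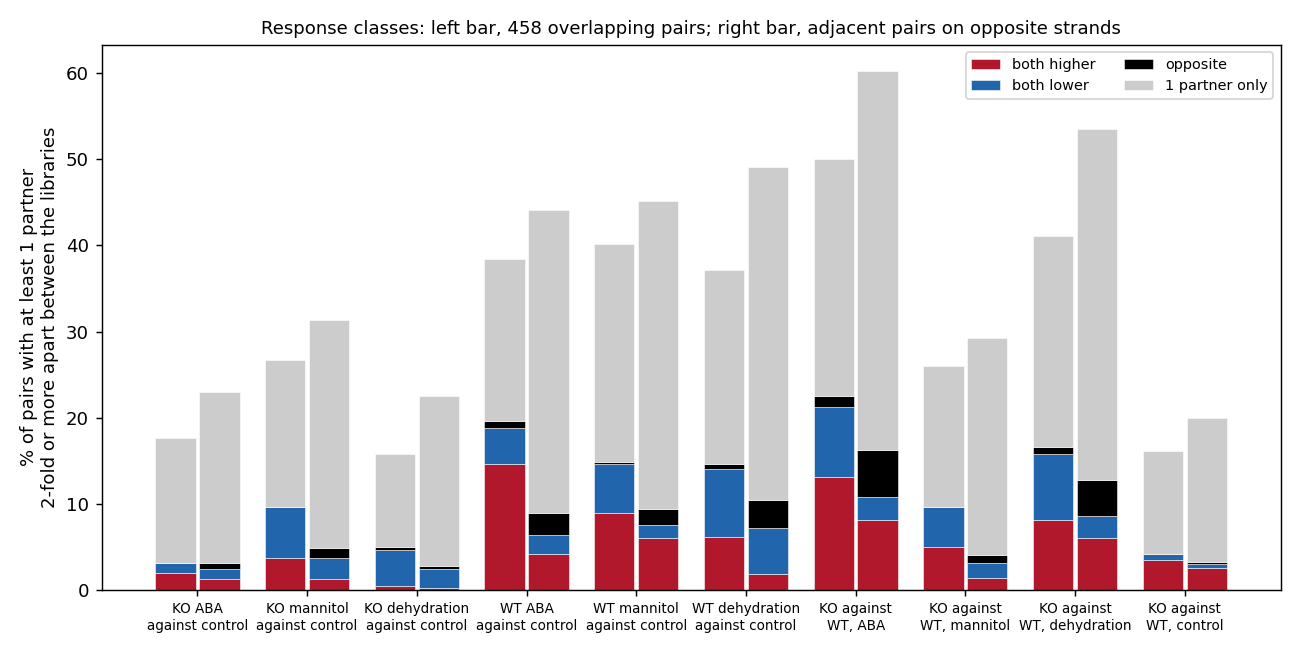
Share of pairs with at least 1 partner 2-fold or more apart, for the treatments in KO, the treatments in WT and KO against WT, with the 458 overlapping pairs as the left bar and 6828 adjacent opposite-strand pairs as the right bar. Colours separate both partners higher, both lower, opposite and 1 partner only. The coloured part (both partners) is taller in overlapping pairs in every comparison except KO with ABA, where 14 of 458 and 210 of 6828 pairs give nearly equal heights.

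Between KO and WT the shares of single member genes at least 2-fold apart stood furthest from those of all genes after dehydration. With ABA 21.9% were higher in KO (26.2% of all) and 14.1% lower (12.7%). With mannitol 8.39% were higher (7.43%) and 9.28% lower (10.1%). After dehydration 15.8% were higher (22.7%) and 12.9% lower (12%), and in the control condition 7.83% were higher (9.14%) and 2.24% lower (3.22%).

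Between the genotypes the partners also differed together. With ABA, both partners differed at least 2-fold between KO and WT in 103 pairs (22.5%, against 17.3% of adjacent pairs), 60 with both higher in KO, 37 with both lower and 6 opposite. With mannitol it was 44 pairs (9.61%, against 4.8%), 23 higher, 21 lower and 0 opposite. After dehydration it was 76 (16.6%, against 14%), 37 higher, 35 lower and 4 opposite, and in the control condition 19 (4.15%, against 3.44%), 16 higher, 3 lower and 0 opposite. The same-direction shares were 94.2%, 100%, 94.7% and 100% in that order, against 69.6%, 80.6%, 71.2% and 91.0% in adjacent pairs. With median-of-ratios scaling, which moved these differences by -0.40, -0.01, -0.30 and -0.36, the pairs with both partners higher and both lower were 32 and 62 with ABA, 18 and 21 with mannitol, 28 and 51 after dehydration, and 7 and 7 in the control condition. Which direction prevailed therefore turned with the scaling with ABA, with mannitol and after dehydration, and the excess of higher pairs was gone in the control condition.

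A test was possible for effects that repeat over the crossed factor, with limma on all 19821 genes, treatment and genotype as terms, and Benjamini-Hochberg adjusted p under 0.05. For genotype, 28 of the 894 member genes (3.13%) were higher in KO, against 3.74% of all genes, and 11 (1.23%) were lower, against 1.67%. Both shares of members stood near those of all genes. In 11 pairs both partners were called, always in the same direction, and in 20 pairs 1 partner was. These pairs were not compared with adjacent pairs. Some of them have a gene in common, and partners can share reads, so their agreement in direction is a description. Of the 39 called members, 7 had a mean under 20 in 1 genotype and passed the minimum through the other, so the count is a description. With edgeR (quasi-likelihood, fitted to recovered reads), 16 members were higher (2.8% of all genes) and 15 lower (1.84% of all), and 5 pairs had both called. With median-of-ratios scaling 8 members were higher (0.906%, against 1.61% of all genes) and 6 lower (0.680%, against 1.56%). The calls also changed with the libraries used. With the pair of libraries of ABA, mannitol or dehydration left out, no member was called, and 0, 5 and 25 of all genes were. Without the controls 98 members were called (11.0%, against 12.3% of all genes).

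For the treatments the test called few members. With mannitol 4 member genes fell (0.447%, against 0.54% of all genes) and none rose (0.0151% of all). By edgeR 3 members fell (0.298% of all) and none rose (0.0353% of all). For ABA limma called 0 members, against 0.00505% of all genes that rose, with 113 at an unadjusted p under 0.05 (12.6%, against 12.9% of all genes), and edgeR 0, with 105 (11.7%, against 12.3%). For dehydration limma called 0, with 99 at an unadjusted p under 0.05 (11.1%, against 14.3% of all genes), and edgeR 0, with 101 (11.3%, against 14.1%). No gene of the whole table was called for dehydration by either tool.

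A gene with 3 partners inside it gave 2 of the 4 named pairs with both partners called for genotype. Phpat.021G049900 (chromosome 21, 9013121 to 9043220, plus strand) contains Phpat.021G050000 (9016543 to 9019239), Phpat.021G050100 (9032706 to 9033353) and Phpat.021G050200 (9034055 to 9035323), all on the minus strand. Phpat.021G049900 had 1370, 1672, 1265 and 1035 normalized reads in KO with ABA, mannitol, dehydration and control, and 410, 465, 330 and 509 in WT. Phpat.021G050000 had 188, 209, 174 and 112 in KO and 37.2, 52.4, 22.1 and 50.2 in WT. Phpat.021G050100 had 77.5, 89.5, 59.0 and 34.2 in KO and 1.61, 2.28, 0 and 3.86 in WT.

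In these 3 genes every KO library lay above every WT library. The limma log2 differences KO against WT of Phpat.021G049900 and Phpat.021G050000 were 1.61 ± 0.22 and 1.86 ± 0.31 (SE), with adjusted p of 0.027 and 0.037. Phpat.021G050100 passed the minimum through the KO libraries alone (means 65.0 in KO and 1.94 in WT), so its difference is given as a description. Phpat.021G050200, chosen after its values were seen, had means of 134 in KO and 43.2 in WT. The inner genes held 12.0%, 3.80% and 10.0% of the reads of the longer gene, and r with the remainder was 0.99, 0.99 and 0.94.

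The other pairs with both partners called were a convergent and a divergent one. Phpat.023G002200 (chromosome 23, 495241 to 498006, plus strand) and Phpat.023G002300 (497000 to 499936, minus strand) are convergent and share 1007 bases. Phpat.023G002200 had 4.72, 6.34, 3.74 and 1.10 normalized reads in KO with ABA, mannitol, dehydration and control, and 485, 85.1, 194 and 44.4 in WT. Phpat.023G002300 had 4.72, 4.23, 3.74 and 4.41 in KO and 1205, 172, 465 and 92.6 in WT. Both were near 0 in every KO library and highest in WT with ABA. Both passed the minimum through the WT libraries alone (means 3.98 and 4.28 in KO, 202 and 484 in WT), so their difference is given as a description.

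Phpat.019G004600 and Phpat.019G004500 (chromosome 19, divergent, 1187 shared bases) were higher in every KO library than in any WT library. Phpat.019G004600 had 1428, 1287, 729 and 874 normalized reads in KO with ABA, mannitol, dehydration and control, and 417, 528, 242 and 413 in WT. The genes rose by 1.41 ± 0.20 and 1.42 ± 0.24 on the log2 scale (SE, limma, adjusted p = 0.027 and 0.037). For these genes and for Phpat.021G049900 and Phpat.021G050000 the highest limma adjusted p over the other settings was between 0.15 and 0.17.

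Few pairs went against each other. All 8 opposite responses in WT (4 with ABA, 1 with mannitol and 3 after dehydration) and both in KO were in convergent pairs, as were 9 of the 10 opposite differences between the genotypes. These are sums over comparisons, so 1 pair can count more than once. Convergent pairs made up 282 of the 458 overlapping pairs. Adjacent convergent pairs also led adjacent divergent ones in opposite responses in WT. Their shares were 3.31% against 1.97% with ABA, 2.31% against 1.28% with mannitol, and 4.17% against 2.32% after dehydration. Phpat.009G026800 (chromosome 9, 3605244 to 3608063, plus strand) and Phpat.009G026900 (3607706 to 3612034, minus strand) share 358 bases and had the lowest r, -0.81. Phpat.009G026800 had 38.7, 28.9, 6.55 and 12.1 normalized reads in KO with ABA, mannitol, dehydration and control, and 386, 38.0, 176 and 25.1 in WT. Phpat.009G026900 had 219, 332, 274 and 176 in KO and 95.3, 251, 129 and 204 in WT. The plus-strand gene was highest, and the minus-strand gene lowest, in WT with ABA and after dehydration.

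Phpat.007G100800 (chromosome 7, 17375014 to 17377787, plus strand) and Phpat.007G100900 (17376906 to 17380315, minus strand) share 882 bases, with r = -0.76. Phpat.007G100800 had 2296, 1774, 1547 and 2784 normalized reads in KO with ABA, mannitol, dehydration and control, and 11612, 2907, 4625 and 1670 in WT. Phpat.007G100900 had 653, 377, 343 and 451 in KO and 141, 447, 143 and 440 in WT. WT with ABA and after dehydration again held the highest values of one gene and the lowest of the other. The log2 differences with ABA in WT were 2.79 (ratio 6.96, 95% counting interval 6.60 to 7.33) and -1.58. With ABA the log2 differences KO against WT were -2.33 and 2.14.

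Phpat.017G023500 (chromosome 17, 5443036 to 5446107, plus strand) and Phpat.017G023600 (5446103 to 5448085, minus strand) share only 5 bases, and r was -0.75. Phpat.017G023500 had 912, 1362, 867 and 1501 normalized reads in KO with ABA, mannitol, dehydration and control, and 289, 1434, 261 and 952 in WT. Phpat.017G023600 had 2219, 2003, 1077 and 1356 in KO and 3790, 2541, 12141 and 3604 in WT. After dehydration in WT the minus-strand gene stood highest and the plus-strand gene lowest, with log2 differences of 1.75 and -1.83.

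**Figure D5:**
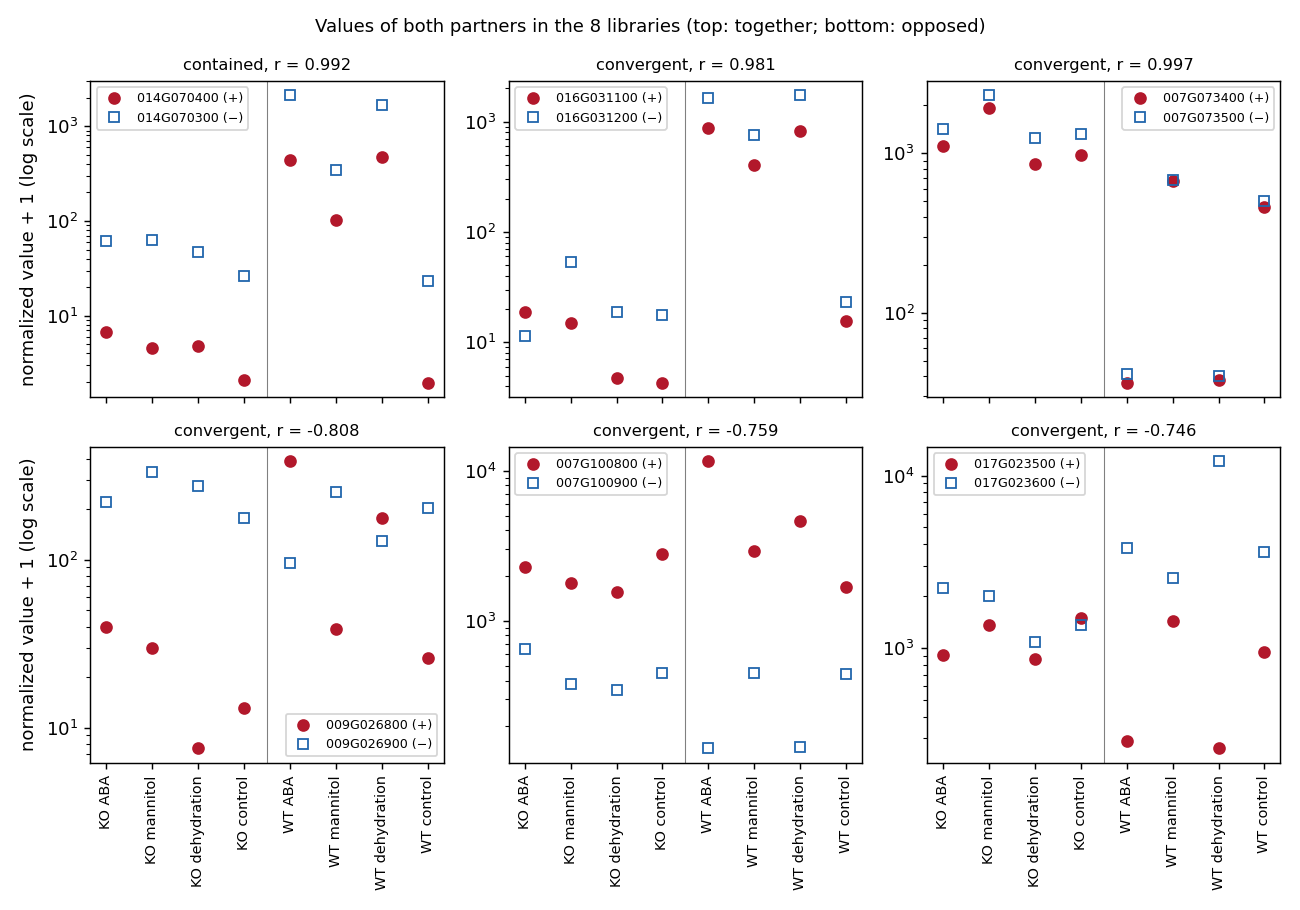
Normalized value plus 1 (log scale) of both partners in the 8 libraries, KO left of WT, for 3 pairs whose partners moved together (top) and the 3 pairs with the lowest r (bottom). Filled circles are the plus-strand genes and open squares the minus-strand genes. In the bottom row 1 partner lies above and the other below its WT control value in WT after dehydration.

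Of the other opposed pairs, Phpat.001G036300 and Phpat.001G036400 (chromosome 1, convergent, 435 shared bases) had 17.8 and 14.0 normalized reads in KO after dehydration, and 22.1 and 330 in WT after dehydration, against 96.5 and 79.1 in the WT control. The log2 differences after dehydration in WT were -1.73 and 1.93. Phpat.002G012100 and Phpat.002G012200 (chromosome 2, convergent, 455 shared bases) differed by -1.72 and 2.25 between KO and WT with ABA. They had 197 and 461 normalized reads in KO with ABA, and 672 and 88.9 in WT with ABA.

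Whether the balance of the partners shifted was tested on the log2 ratio of the 2 genes with limma, over all 15299 overlapping and adjacent pairs. For genotype 0 of the 458 overlapping pairs were called, against 0.118% of all pairs tested, and 78 (17.0%) had an unadjusted p under 0.05, against 30.1% of adjacent pairs. For ABA, mannitol and dehydration 0 of all 15299 pairs were called, overlapping or adjacent. For ABA 21 overlapping pairs (4.59%) had an unadjusted p under 0.05, against 10.6%. For mannitol it was 32 (6.99%) against 15.7%, and for dehydration 18 (3.93%) against 13.3%. With a share as low as 0.118% over all pairs, 0 of 458 says little about overlapping pairs. Reads counted in both partners would hold their ratio steady by construction, so the lower unadjusted shares are a description. How far reads were shared was not tested. For the 3 pairs with the lowest r the genotype log2 difference of the ratio, plus strand over minus strand, was -2.46 ± 0.87, -1.76 ± 0.93 and 2.47 ± 0.82 (SE), with limma adjusted p of 0.15, 0.26 and 0.14.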

How the data were processed

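Poly(A) RNA of 8 libraries was sequenced, 1 library per genotype and condition, each from 3 pooled biological replicates. Per the submitters' processing notes the tools were TopHat2, bedtools, SAMtools, Trimmomatic and FastQC, without versions. The sources used here say neither how the authors normalized nor whether strand was used. The deposited signal has 1 normalized value for each gene in each library, without length correction. Each value was a whole multiple of 1 step per library (100% of values, tolerance 0.01 read), so reads were recovered by division. The search for pairs and the fits were tested on simulated data, the fits with a genotype effect but no treatment effect or shared reads. The recovery was checked only by rescaling the recovered reads and recovering them again, which cannot show a wrong step. With 1 library per group, counting intervals (95%) cover counting error only, and the p-values reflect only the scatter of these 8 pooled libraries.

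Values were taken to log2(value + 10), which understates the change of low genes, for genes with a mean of at least 20. limma 3.58.1 (additive treatment and genotype, 3 residual degrees of freedom, two-sided) gave the tests. It used a trend for the genes and no trend for the log2 ratios of pairs. For the genes, edgeR 4.0.16 (R 4.3.3) on the recovered reads was the alternative. p-values were Benjamini-Hochberg adjusted over all genes or all pairs tested. Other steps used numpy 2.4.6, pandas 2.3.3 and scipy 1.17.1.

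Named pairs followed a rule: the most shared bases in each geometry, the highest and lowest r, the highest levels, the largest shared and opposite differences, and both partners called for genotype. The pairs, lists and tests were chosen with earlier results of these data known. Near-equal copies, the remainder of longer genes and the chromosome 20 region were added after seeing the data. The alternatives were pseudocounts of 1 and 50, no filter, means of at least 100, median-of-ratios scaling, larger overlaps, a 4-fold threshold and left-out libraries. 11 of the 894 member genes had another gene within 2% in all libraries. RefSeq sequences and names, of another assembly, were not used here.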

Additional observations from a re-analysis of the deposited data

Results flagged for a closer look

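The contained pair Phpat.016G058600 and Phpat.016G058700 stood out because ABA went with opposite differences in the 2 genotypes. Phpat.016G058600 had a log2 difference from the control of -2.73 in KO and 1.07 in WT, and Phpat.016G058700 had -2.73 in KO and 1.07 in WT. With 1 library per group the difference between the genotypes was not tested. The values of both genes were within 2% of each other and of Phpat.016G058500 and Phpat.016G058800 in all libraries, so the 4 genes may show 1 signal.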

How the results depend on the processing

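The median r of overlapping pairs (0.81) was 0.75 with no filter, 0.73 with median-of-ratios scaling and 0.95 where at least 50% of the shorter span was shared. Leaving out 1 library at a time gave 0.79 to 0.83. For adjacent pairs (0.38) it was 0.31 with no filter, 0.17 with median-of-ratios scaling and 0.54 with gaps of at most 1000 bases, and 0.34 to 0.41 without 1 library. Same-direction shares of overlapping pairs reached 100% with larger overlaps (all 3 WT treatments, dehydration in KO, and KO against WT with ABA and after dehydration), at 4-fold (the same but for KO against WT with ABA), with a pseudocount of 50 (WT mannitol and KO dehydration), and for WT mannitol with means of at least 100 or median-of-ratios scaling. The number of members called for genotype, 39, was 14 with median-of-ratios scaling, 0 with no filter (241 at an unadjusted p under 0.05 by limma; no gene of the table was called), 0 without the ABA, mannitol or dehydration libraries and 98 without the control libraries. The 4 members called for mannitol became 0 with no filter. The balance fit called 8 pairs for genotype without the control libraries (1.75%, against 7.42% of adjacent pairs) and 0 under the other settings run. The cause was not tested. The host gene had at least as many reads as the gene inside it in every contained pair under each level minimum. Of the values judged here as main results, 146 stayed within the interval or range set for them and 35 moved. Of the other values, 247 stayed within theirs or kept the call, 59 moved and 30 lost the call. For r of a named pair that interval, over 8 libraries, is wide. A reversal was looked for only in the 2-fold log2 differences and the genotype effects of named genes, and none was found. The prevailing direction of pairs did turn with median-of-ratios scaling, for mannitol and dehydration in WT, ABA in KO, and KO against WT with ABA, with mannitol and after dehydration. No paired analysis was possible because the labels give no replicate numbers and each group is 1 pooled library. Depth was not varied.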
